A study of Homo sapiens with 12 samples.

Results

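The genes described here are ESR2, which encodes estrogen receptor beta (ERβ), and 8 genes for proteins that work with nuclear receptors, namely NCOA1, NCOA2, NCOA3, NCOR1, NRIP1, MED1, EP300 and CREBBP. They were chosen by name for the function of their products, as the entries of the count table with these symbols, and all 9 were found once among the 12451 entries used. RNA-seq libraries were made from MDA-MB-231-ERβ cells, a triple negative breast cancer line engineered to express full-length human ERβ when doxycycline (dox) is added. Dishes were plated in triplicate in medium with charcoal-stripped serum, dox was given to all from seeding, and the 4 groups of 3 libraries were vehicle (ethanol), 1 nM estradiol (E2), 20 ng/ml TNFα and E2+TNFα. Vehicle or E2 was present for 5 days with fresh medium on day 3, and TNFα was present for the last 3 h only. The treatment label of the E2+TNFα libraries does not name dox as the labels of the other 3 groups do, while the treatment protocol gives dox for all. All groups therefore carry the induced receptor, and no library without dox was analysed here. The study reported no appreciable ERβ mRNA in the unmodified triple negative lines it screened, MDA-MB-231 among them. The transgene is thus the likely main source of ESR2 reads, but a count per gene cannot tell it from the native locus.

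ERβ is a ligand-activated transcription factor that binds DNA at estrogen response elements (EREs) or through other factors, and in most breast cancer cells its native expression is low. With agonist bound, nuclear receptors recruit coactivators of the steroid receptor coactivator family (NCOA1, NCOA2 and NCOA3), which bring the acetyltransferases p300 (EP300) and CBP (CREBBP) to the chromatin, and they contact the Mediator complex through its subunit MED1, which links them to RNA polymerase II. The corepressor NCOR1 holds a histone deacetylase complex on receptors and on other factors, and NRIP1 (RIP140) binds agonist-bound receptors and lowers their activity. TNFα activates NFκB, whose p65 subunit uses p300 and CBP as coactivators, so that the same cofactors serve both signals given to these cells.

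Counts cover all exons of a gene in hg38. ESR2 lies on chromosome 14 (64172925 to 64338550, minus strand) with 7995 exon bases in the table, of which its canonical transcript codes over 1590. NCOA1 is on chromosome 2 (24492050 to 24770702, plus strand) and NCOA3 on chromosome 20 (47501857 to 47656877, plus strand), and MED1 is on chromosome 17 (39404285 to 39451280, minus strand). EP300 is on chromosome 22 (41092610 to 41180077, plus strand), CREBBP on chromosome 16 (3725054 to 3880120, minus strand), NCOR1 on chromosome 17 (16030094 to 16216746, minus strand) and NRIP1 on chromosome 21 (14961235 to 15065903, minus strand). No exon base of the 9 genes is shared with another entry of the table. Stretches that resemble their exons elsewhere were found for NCOR1 (5 places, at most 1049 bases or 8.98% of its exon bases), NCOA1 (908 bases or 12.6%, on chromosome 5) and ESR2 (582 bases or 7.28%, chromosome 14). The largest were between EP300 and CREBBP, with 2057 bases or 23.5% of the exon bases of EP300 and 1403 bases or 13.5% of those of CREBBP. How reads from such stretches were assigned is not given in the sources used here.

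The promoters of 8 of the genes (all but NCOA2) were searched from 250 bases before to 30 bases after the RefSeq start site (GRCh38.p14) for the full ERE GGTCANNNTGACC, its arm GGTCA and the NFκB consensus, on both strands. None of the 8 held the full ERE, which 17 of all 27305 promoters of that length held. For ESR2 the window is that of the native locus, while the transgene is the likely main source of its reads. The arm was found in MED1 only (35.9% of all promoters held it), and the NFκB consensus in NCOA3, NCOR1 and MED1 (10.2% of all promoters). These 3 promoters are shown because they hold the matches, which are in capitals. A match is a run of letters and not a bound site, and binding was not analysed here. In NCOA3 the NFκB match begins 184 bases before the start site and reads the same on both strands, in NCOR1 it begins 135 bases before, and in MED1 the ERE arm (minus strand) begins 79 bases before and the NFκB match 2 bases before. The NCOR1 window lies inside the gene span given above, so its start site is an internal one, and other start sites were not searched.
NCOA3 (chr20:47501637-47501916, plus strand): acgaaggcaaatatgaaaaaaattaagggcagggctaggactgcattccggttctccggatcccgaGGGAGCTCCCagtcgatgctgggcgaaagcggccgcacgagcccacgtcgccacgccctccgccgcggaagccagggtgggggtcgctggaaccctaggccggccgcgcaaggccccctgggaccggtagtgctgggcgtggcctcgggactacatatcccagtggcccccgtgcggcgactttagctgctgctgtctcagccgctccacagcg
NCOR1 (chr17:16215505-16215784, minus strand): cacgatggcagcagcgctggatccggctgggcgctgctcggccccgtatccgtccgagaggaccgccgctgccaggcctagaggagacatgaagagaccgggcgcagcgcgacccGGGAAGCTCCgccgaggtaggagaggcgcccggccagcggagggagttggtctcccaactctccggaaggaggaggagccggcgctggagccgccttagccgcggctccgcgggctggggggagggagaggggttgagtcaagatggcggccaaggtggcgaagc
MED1 (chr17:39451234-39451513, minus strand): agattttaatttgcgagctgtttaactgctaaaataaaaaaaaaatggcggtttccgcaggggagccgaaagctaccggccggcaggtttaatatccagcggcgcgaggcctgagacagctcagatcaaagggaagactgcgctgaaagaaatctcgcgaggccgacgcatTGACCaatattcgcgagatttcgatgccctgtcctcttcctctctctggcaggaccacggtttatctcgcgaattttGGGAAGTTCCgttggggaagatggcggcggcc

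Levels are given as CPM after TMM scaling, and levels of different genes are compared only per exon length (RPKM). Between 7.65 and 39.9 M reads (M, mega) per library were assigned to genes, with the fewest in the E2 group (7.65 to 15.8 M), where the counts of the 9 genes ran down to 22 reads (NCOA2). The treatments were visible in known targets: GREB1, an estrogen target, was higher by 3.90 ± 0.17 (log2 fold change ± standard error) in E2 relative to vehicle, and TNF by 6.84 ± 0.27 in TNFα relative to vehicle. Of 8 mesenchymal or basal markers 7 were in the table, with a sum of 4378 to 6196 CPM (scaled by library size) over the 12 libraries. VIM, CD44, AXL and MSN made up most of it, and the sum hides single genes. EGFR had means of 287 and 249 CPM in vehicle and TNFα and of 61.3 and 88.8 in E2 and E2+TNFα. ZEB1 was at 26.6 in vehicle and at 1.09 to 2.69 in the other groups. CAV1 was higher with E2 (339 and 387 against 194 and 189). Of 8 luminal markers 5 were in the table, with a sum of 850 to 1244 CPM in the vehicle and TNFα groups and of 2837 to 3465 CPM in the groups with E2, and of 6 markers of blood and endothelial cells only CD68 was (77.4 to 110 CPM). Nearly all of the luminal sum was KRT8 (775 and 1043 CPM in vehicle and TNFα, 3112 and 2869 in E2 and E2+TNFα). CDH1 was also higher with E2, while GATA3 (8.86 and 13.0 against 4.23 and 5.46) and ERBB2 (114 and 108 against 83.4 and 97.9) had lower means with E2, and EPCAM overlapped. The part of these marker differences in the results below was not tested. In RNA from whole dishes, fewer cells that express a gene and less RNA per cell cannot be told apart.

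The vehicle libraries stood apart from the other 9. A principal component analysis put 66.5% of the variance on 1 axis, which separated the 3 vehicle libraries from all others, and the log2 fold change relative to vehicle rose with the GC content of a gene's exons (Spearman correlation across 11303 genes 0.66 for E2, 0.71 for TNFα and 0.67 for E2+TNFα). Between the groups other than vehicle this correlation lay between −0.33 and −0.01. With exon length the correlation was −0.38 to −0.31 relative to vehicle, 0.05 in E2+TNFα relative to TNFα, −0.20 in E2 relative to TNFα and 0.46 in E2+TNFα relative to E2. Of the 9 genes, NRIP1 lies in the lowest of 5 equal classes of tested genes by GC content (38.6%), NCOA1, NCOA2, NCOA3 and MED1 in the next (42.7 to 44.8%), ESR2, NCOR1 and EP300 in the middle (47.3 to 49.8%) and CREBBP above (54.0%). By exon length, each of the 9 is above at least 86.7% of the entries. Vehicle treatment and whatever else set these libraries apart cannot be told apart, so comparisons relative to vehicle are given with a fit from which each library's trends with GC content and length had been removed, and comparisons without vehicle are given beside them.

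ESR2 was the most abundant of the 9 transcripts in every group, and within the cells that had received TNFα it was higher with E2 than without. Per exon length its mean level was 59.1 RPKM in vehicle, 31.9 in TNFα, 38.3 in E2 and 56.1 in E2+TNFα, above 91.9%, 80.6%, 82.5% and 88.2% of the tested genes. The RPKM divides by all 7995 exon bases. Removal of the trends likewise uses the GC content and length of these bases, which may not be those of transgene RNA. The libraries held 486, 457 and 474 CPM of ESR2 in vehicle, 282, 255 and 228 in TNFα, 322, 304 and 293 in E2, and 433, 405 and 508 in E2+TNFα. The vehicle and E2+TNFα libraries overlapped, all 3 E2 libraries lay below both, and all 3 TNFα libraries lay below the E2 libraries.

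In the order of means, vehicle and E2+TNFα did not differ past the test (log2 difference −0.08 ± 0.12, adjusted p = 0.563, edgeR). E2+TNFα was 1.46 times higher than E2 (log2 0.55 ± 0.12, adjusted p = 0.0249) and 1.76 times higher than TNFα (0.81 ± 0.12, adjusted p = 5.73e-05). The latter difference passed in every setting tried, with 0.74 when the trends were removed and 0.72 to 0.89 with single libraries left out. E2 lay 1.20 times above TNFα (0.27 ± 0.12, adjusted p = 0.0823), a call that was lost with 4 of the 6 single libraries left out. It was kept in 7 of the 10 other settings. Scaling to library size alone (0.10), a replicate block in the fit and a fit of the compared groups alone lost it. ESR2 was lower in TNFα than in vehicle, with a log2 difference of −0.89 ± 0.12, and of −0.59 with the trends removed (adjusted p = 0.000228). E2 relative to vehicle gave −0.62 ± 0.12, and −0.24 with the trends removed (adjusted p = 0.0696). The plot of levels by library shows ESR2 with the other 8 genes.

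**Figure D1:**
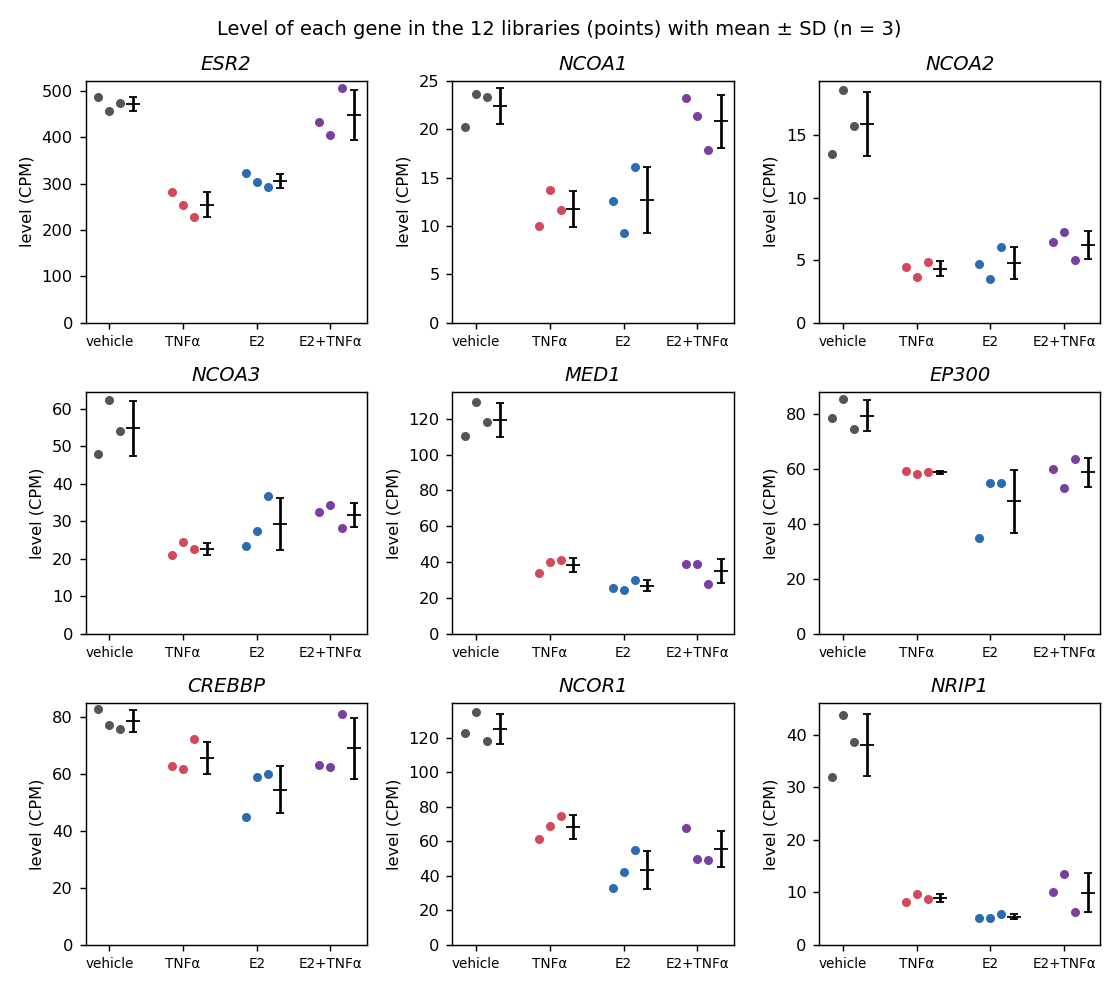
Level of each of the 9 genes (CPM, TMM-scaled, axis from 0) in the 3 libraries of each of the 4 groups, as points, with the mean and SD as a bar to the right. All 9 vehicle means are the highest of their panel, ESR2 and NCOA1 return to near the vehicle level in E2+TNFα, and NRIP1 and MED1 stay far below it in all 3 treated groups.

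The 3 steroid receptor coactivators were present at low levels per length, from 0.367 RPKM (NCOA2 in TNFα) to 6.82 RPKM (NCOA3 in vehicle), and within each group NCOA3 was the highest and NCOA2 the lowest of the family. All 3 were higher in E2+TNFα than in TNFα. NCOA1 (SRC-1), the founding member of the family, was at 20.3, 23.6 and 23.3 CPM in vehicle, 9.94, 13.7 and 11.7 in TNFα, 12.6, 9.25 and 16.1 in E2, and 23.2, 21.3 and 17.9 in E2+TNFα. Every E2+TNFα library lay above every library of TNFα and of E2, while E2 and TNFα overlapped. NCOA1 was 1.77 times higher in E2+TNFα than in TNFα (log2 0.82 ± 0.19, adjusted p = 0.00378, edgeR), a call kept in every setting and with each of the 6 libraries left out (0.71 to 0.93). It was 1.63 times higher than in E2 (0.70 ± 0.20, adjusted p = 0.0729), a call lost without E2 replicate 1 or 2 or without E2+TNFα replicate 1 or 2 (0.53 to 0.69). E2 and TNFα did not differ past the test (0.12 ± 0.20), nor did E2+TNFα and vehicle (−0.11 ± 0.19).

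NCOA2 (SRC-2, also called TIF2 or GRIP1), on chromosome 8 (70109770 to 70405437, minus strand), was measured at 13.5, 18.6 and 15.7 CPM in vehicle, 4.48, 3.65 and 4.84 in TNFα, 4.65, 3.51 and 6.06 in E2, and 6.43, 7.24 and 5.00 in E2+TNFα. Its mean reached 1 RPKM in vehicle only, so the filter on low values let it pass through the group where it was high, and its fall relative to vehicle is no independent support of a fall. Between E2+TNFα and TNFα it differed by 0.53 ± 0.23 (adjusted p = 0.0855, edgeR), a call lost with 5 of the 6 single libraries left out. NCOA3 (SRC-3 or AIB1), which is often amplified or overexpressed in breast cancer, was at 47.9, 62.3 and 54.0 CPM in vehicle, 21.0, 24.3 and 22.6 in TNFα, 23.4, 27.4 and 36.8 in E2, and 32.3, 34.4 and 28.3 in E2+TNFα. All E2+TNFα libraries lay above all TNFα libraries, and the E2 libraries overlapped both. NCOA3 was 1.40 times higher in E2+TNFα than in TNFα (0.48 ± 0.16, adjusted p = 0.0313), with 0.36 when the trends were removed, and without TNFα replicate 1 or E2+TNFα replicate 2 the adjusted p rose to 0.112 and 0.101. In E2 it was 1.29 times above TNFα (0.37 ± 0.17, adjusted p = 0.0964), a call lost with 5 of the 6 single libraries left out (0.14 on the log2 scale without E2 replicate 3) and in 6 of the 10 other settings.

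MED1, the Mediator subunit that nuclear receptors contact, was the most abundant of the 8 coregulators per length in vehicle (14.6 RPKM) and was lower in E2 than in TNFα. Its libraries stood at 111, 130 and 118 CPM in vehicle, 34.0, 40.2 and 41.3 in TNFα, 25.6, 24.6 and 30.1 in E2, and 38.6, 38.9 and 27.5 in E2+TNFα. All 9 treated libraries lay far below vehicle, every E2 library lay below every TNFα library, and E2+TNFα overlapped both. MED1 was 1.44 times lower in E2 than in TNFα (log2 −0.52 ± 0.15, adjusted p = 0.0134, edgeR), and this call held in every setting and with each library left out (−0.64 to −0.47). E2+TNFα did not differ from TNFα past the test (−0.14 ± 0.15). Relative to vehicle MED1 fell 4.45 times with E2, 3.10 times with TNFα and 3.42 times with both. After removal of the trends the log2 values were −1.002, −0.65 and −0.87, all past an adjusted p of 0.1, and with an unwanted factor fitted they were −0.84, −0.29 and −0.36, none of which passed. That factor was 0.46 to 0.51 in the vehicle libraries and −0.33 to −0.08 in the others. It thus nearly marks the vehicle group, and a call lost with it cannot decide on a fall relative to vehicle.

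The 2 acetyltransferase genes differed little between TNFα and E2+TNFα. EP300 was at 78.4, 85.3 and 74.2 CPM in vehicle, 59.2, 58.2 and 58.6 in TNFα, 34.8, 54.7 and 54.9 in E2, and 59.7, 52.9 and 63.4 in E2+TNFα. CREBBP was at 82.8, 77.2 and 75.6 CPM in vehicle, 62.7, 61.8 and 72.1 in TNFα, 44.8, 58.7 and 59.8 in E2, and 63.2, 62.3 and 81.1 in E2+TNFα. For both, the lowest value was E2 replicate 1 and the E2 libraries lay below all TNFα libraries, but that difference did not pass the test (EP300 −0.29 ± 0.15, adjusted p = 0.151, and CREBBP −0.27 ± 0.14, adjusted p = 0.147, edgeR). Both passed once the trends were removed (−0.23 and −0.21). E2+TNFα and TNFα were close, with log2 differences of −0.00 ± 0.15 for EP300 and 0.07 ± 0.14 for CREBBP. Relative to vehicle EP300 fell 1.66 times in E2 and 1.35 times in both TNFα and E2+TNFα. CREBBP fell 1.45 times in E2 and 1.20 times in TNFα, the latter a call lost with 5 of the 6 single libraries left out, and E2+TNFα did not pass (−0.19 ± 0.14).

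The corepressor NCOR1 was lowest with E2 alone. It was measured at 123, 135 and 118 CPM in vehicle, 61.1, 68.7 and 74.85 in TNFα, 32.9, 42.1 and 54.6 in E2, and 67.4, 49.9 and 49.2 in E2+TNFα. Vehicle lay above all others, every E2 library lay below every TNFα library, and E2+TNFα overlapped both. NCOR1 was 1.58 times lower in E2 than in TNFα (log2 −0.66 ± 0.17, adjusted p = 0.00738, edgeR), in every setting and with each library left out (−0.89 to −0.52). The difference between E2+TNFα and TNFα did not pass (−0.30 ± 0.17, adjusted p = 0.182), but it passed with the trends removed (−0.44, adjusted p = 0.00143) and without E2+TNFα replicate 1 (−0.46). Relative to vehicle NCOR1 fell 2.90 times with E2, 1.84 times with TNFα and 2.26 times with both, and with the trends removed the log2 values were −0.75, −0.19 and −0.63.

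NRIP1, a known estrogen target as well as a corepressor, had the widest range of the 9 genes. Its libraries stood at 31.9, 43.8 and 38.7 CPM in vehicle, 8.17, 9.69 and 8.74 in TNFα, 5.20, 5.10 and 5.88 in E2, and 10.0, 13.6 and 6.17 in E2+TNFα. The E2 libraries (32 to 76 reads) lay below all others, and the spread of E2+TNFα covered all TNFα libraries. NRIP1 was 1.64 times lower in E2 than in TNFα (log2 −0.71 ± 0.25, adjusted p = 0.0356, edgeR), in every setting and with each library left out (−0.80 to −0.67). E2+TNFα was 1.83 times higher than E2 (0.87 ± 0.25, adjusted p = 0.0767), a call lost with the trends removed (0.36, adjusted p = 0.110) and with 4 of the 6 libraries left out (at least 0.56), and did not differ from TNFα past the test (0.16 ± 0.23). Relative to vehicle NRIP1 fell 7.05 times with E2, 4.30 times with TNFα and 3.85 times with both. These were the largest fitted falls of the 9 genes, and they were mostly gone with the trends removed, when the log2 values were −0.38 (adjusted p = 0.0124), 0.16 and −0.02 and neither of the latter passed.

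Read across the 9 genes, the comparison of each treatment with vehicle asks what the hormone, the cytokine or both do to the receptor and its cofactors. All 9 fitted values were below 0 in each of these 3 comparisons. Calls past the thresholds needed a log2 fold change beyond 1.5 in size, p under 0.05 and an adjusted p of at most 0.1. In E2, 4 of 9 genes fell past the thresholds (NCOA2, NCOR1, NRIP1 and MED1) against 20.6% of all tested genes, and 0 of 9 rose against 9.87%. All 9 were lower at the adjusted p alone, against 41.7% of all genes. NCOA2 entered the test only through vehicle, where it was high, and without it 3 of 8 fell past the thresholds in E2 and 2 of 8 in TNFα. In TNFα, 3 of 9 fell past the thresholds (NCOA2, NRIP1 and MED1) against 20.0%, 0 rose against 6.64%, and 9 were lower at the adjusted p alone against 41.6%. In E2+TNFα, 2 of 9 fell past the thresholds (NRIP1 and MED1) against 17.6%, 0 rose against 7.52%, and 6 were lower at the adjusted p alone against 41.5%. DESeq2 gave the same counts past the thresholds, and it too gave 0 rises.

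The median log2 fold change of the 9 genes was −0.91 for E2, −0.93 for TNFα and −0.79 for both, beside medians of all tested genes of −0.02, 0.01 and −0.03. Genes of the GC content of NRIP1 had a median of −1.91 in E2 relative to vehicle, those of NCOA1, NCOA2, NCOA3 and MED1 −0.84, those of ESR2, NCOR1 and EP300 0.19 and those of CREBBP 0.66. With the trends removed 0 of the 9 genes passed the thresholds relative to vehicle. The genes lower at the adjusted p alone were then 6 for E2, 6 for TNFα and 4 for both, against 38.8%, 36.6% and 39.5% of all genes, and 2, 0 and 2 were higher against 38.4%, 39.7% and 36.7%. MED1, EP300, CREBBP and NCOR1 were below 0 in all 3 comparisons under every setting tried. NCOA1 and NCOA3 turned to rises with the trends removed, of 0.46 and 0.71 in E2 and of 0.91 and 0.53 in E2+TNFα, all past an adjusted p of 0.1. The fold change and GC content of all genes are drawn in the plot of both quantities, and the plot of the vehicle comparisons sets the kinds of processing side by side.

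**Figure D2:**
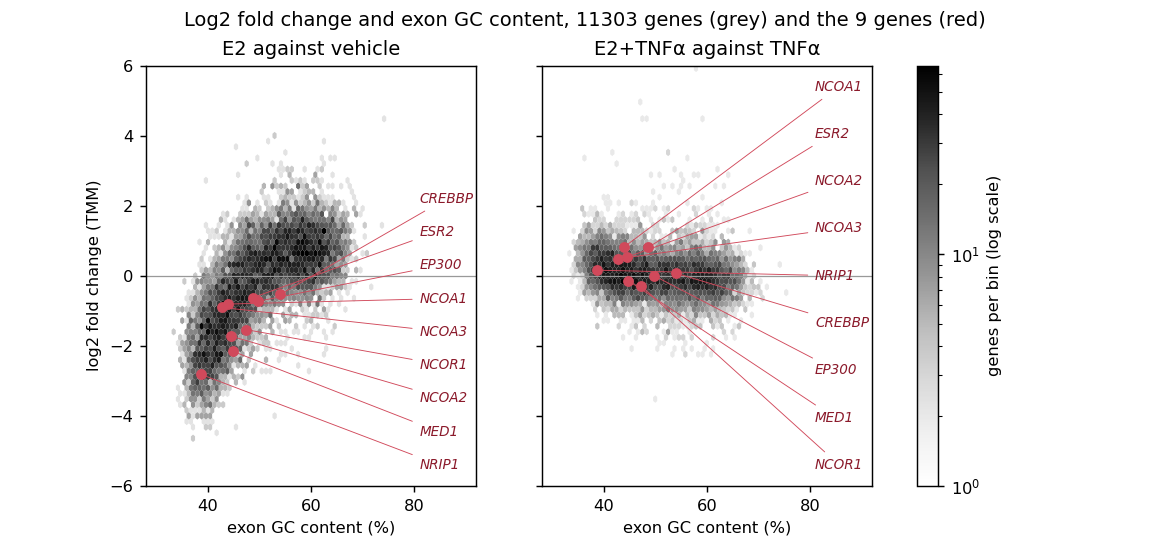
Log2 fold change (TMM) against exon GC content (%) for all 11303 tested genes (grey bins, darker for more genes, log scale) and the 9 genes (red, named), for E2 against vehicle (left) and E2+TNFα against TNFα (right). On the left the grey cloud climbs with GC content and NRIP1, at 38.6% GC, sits lowest of the 9, and on the right the cloud is nearly flat and ESR2 and NCOA1 sit highest.

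**Figure D3:**
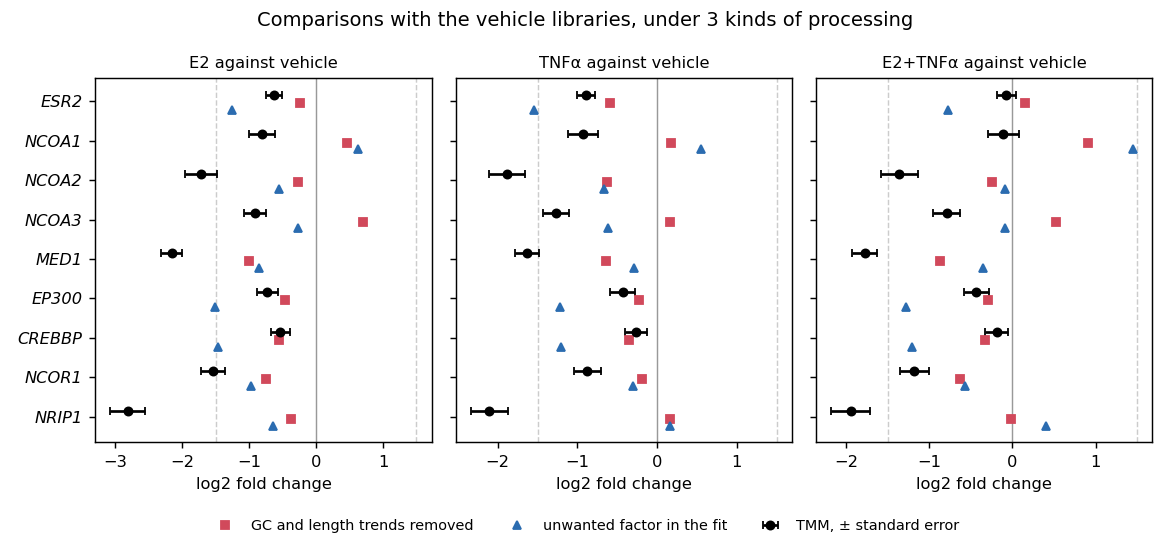
Log2 fold change of the 9 genes relative to vehicle under each of the 3 treatments, with TMM scaling (black circles, ± standard error), with the GC and length trends removed (red squares) and with an unwanted factor from 20 housekeeping genes in the fit (blue triangles), and dashed lines at −1.5 and 1.5. NRIP1 moves from −2.82 to −0.38 in E2 when the trends are removed, NCOA1 and NCOA3 cross 0, and MED1 stays below 0 in all panels.

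The comparisons without vehicle ask what E2 changes in cells that also received TNFα, what TNFα changes in cells with E2, and how E2 and TNFα differ. They share libraries with each other and are therefore given side by side and not as independent results. In E2+TNFα relative to TNFα, 4 of 9 genes were higher at an adjusted p of at most 0.1 (ESR2, NCOA1, NCOA2 and NCOA3) against 24.4% of all tested genes, and 0 of 9 were lower against 21.0%. In E2 relative to TNFα, 2 were higher (ESR2 and NCOA3) against 24.9%, and 3 were lower (NCOR1, NRIP1 and MED1) against 21.8%. In E2+TNFα relative to E2, 3 were higher (ESR2, NCOA1 and NRIP1) against 2.65%, and 0 were lower against 3.34%. All 9 were fitted above 0. Long genes were higher in that comparison (correlation with exon length 0.46) and the 9 genes are long, and the median of the 9 was 0.37, or 0.17 with the trends removed. The 3 calls depended on the samples that shared the fit, since a fit of the 2 compared groups alone gave 0.

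No member of the 9 passed the size threshold in these comparisons with edgeR or with DESeq2, where 5.56% of all genes passed it in E2+TNFα relative to TNFα, 0.407% in E2+TNFα relative to E2 and 5.97% in E2 relative to TNFα. The unadjusted p was under 0.05 for 4, 5 and 5 of the 9 genes in these comparisons. No share of all genes was computed at that level, so these counts are not read as a result about the 9 genes. ESR2 and NCOA1 were higher in E2+TNFα than in TNFα, and NCOR1, NRIP1 and MED1 were lower in E2 than in TNFα, under every setting tried and with every single library left out. The plot of the comparisons without vehicle shows these values by kind of processing. In E2+TNFα relative to E2 the trends mattered more, since NRIP1 went from 0.87 to 0.36, NCOA2 from 0.37 to 0.02 and NCOA3 from 0.12 to −0.18 when they were removed.

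**Figure D4:**
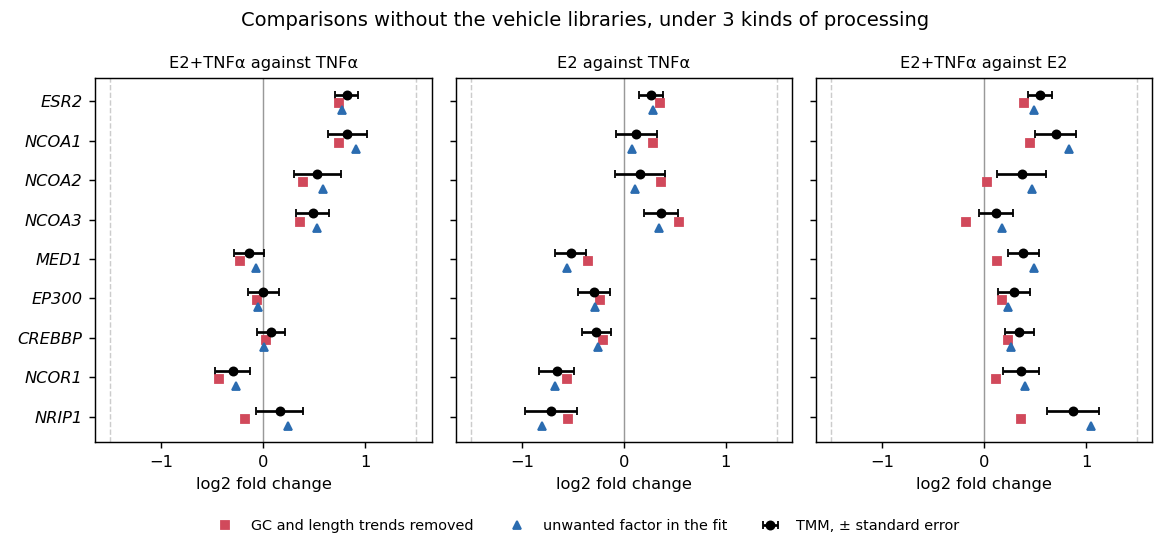
Log2 fold change of the 9 genes in E2+TNFα against TNFα, E2 against TNFα and E2+TNFα against E2, with the same symbols for TMM scaling (± standard error), trends removed and an unwanted factor. ESR2 and NCOA1 lie near 0.8 in the left panel under all 3 kinds of processing, and NCOR1, NRIP1 and MED1 lie below 0 in the middle panel under all 3.

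The interaction compares the difference that E2 made in the presence of TNFα with the one it made in its absence, and it rests on all 4 groups, vehicle included. For ESR2 the E2 difference was −0.62 without TNFα and 0.81 with it, so the interaction was 1.44 ± 0.16 (adjusted p = 3.30e-06, edgeR). All 9 genes had a positive interaction at an adjusted p of at most 0.1 against 39.0% of all tested genes, and 4 of 9 passed the thresholds (NCOA1, NCOA2, NRIP1 and MED1) against 22.5%. NCOA2 is counted here, but it entered the test only through vehicle, where it was high. A high vehicle value raises the interaction, so the value of NCOA2 is no independent support. With the trends removed 0 passed the thresholds, and 6 of the 9 stayed above 0 at the adjusted p against 31.7% of all genes, ESR2 with 0.98 (adjusted p = 8.03e-05), while NCOA3 turned to −0.35. For ESR2 the removal used its annotated exons, with the limit given above. ESR2 kept opposite signs for E2 with the trends removed, −0.24 without TNFα and 0.74 with it, both past an adjusted p of 0.1. NCOA1 did not, since its values were then 0.46 and 0.74.

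Because coactivators and corepressors compete for receptors, their ratios within a library are of use, and such ratios do not depend on the scaling between libraries. Reads per exon base were compared within each library, and since the pairs were chosen with earlier results of these data known, the ratios are a description with no test. The ratio of NCOA3 to NCOR1 was 0.635 ± 0.060 (SD, n = 3) in vehicle, 0.485 ± 0.040 in TNFα, 0.988 ± 0.044 in E2 and 0.846 ± 0.153 in E2+TNFα. The groups with E2 (0.698 to 1.03) did not overlap those without (0.439 to 0.673). The ratio of NCOA1 to NCOR1 was 0.290 ± 0.027 in vehicle, 0.279 ± 0.037 in TNFα, 0.483 ± 0.132 in E2 and 0.612 ± 0.070 in E2+TNFα, with no overlap between libraries with and without E2. ESR2 per NCOR1 was 5.54 ± 0.51 in vehicle, 5.54 ± 1.15 in TNFα, 10.9 ± 3.2 in E2 and 12.1 ± 2.9 in E2+TNFα. These 3 ratios share the denominator NCOR1, whose mean level was lowest in E2 (43.2 CPM), so they are not independent of each other. How many pairs of other genes separate in the same way was not computed. The ratio of CREBBP to EP300 was 0.762 to 0.889 in vehicle, and the other 3 groups overlapped each other from 0.891 to 1.08. NCOA2 per NCOA1 was 0.435 ± 0.041 in vehicle and 0.183 to 0.232 on average in the others. The GC content of NCOA3 is 42.7% and that of NCOR1 47.3%, and the trend in the vehicle libraries also enters ratios that involve vehicle.

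**Figure D5:**
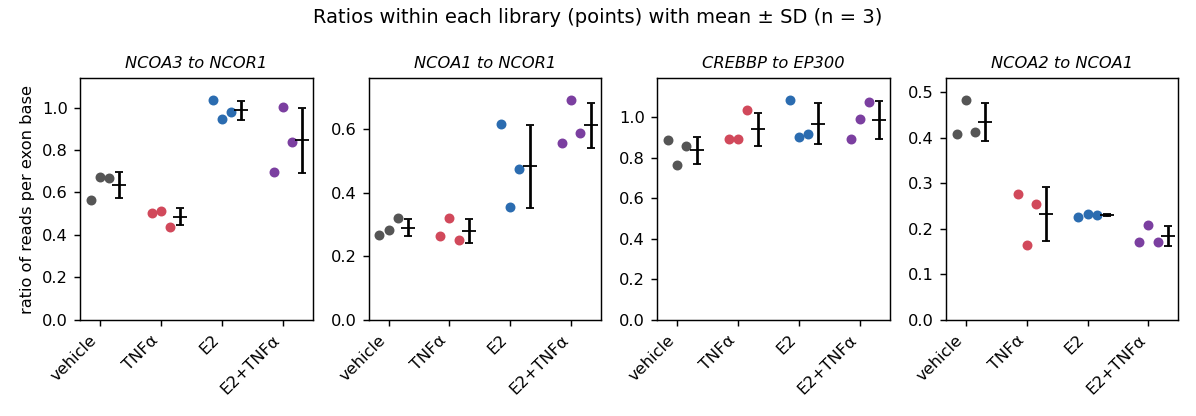
Ratio of reads per exon base for 4 pairs of genes within each library (points) by group, with the mean and SD as a bar to the right and each axis from 0. NCOA3 to NCOR1 and NCOA1 to NCOR1 are higher in every library with E2 than in every library without, and CREBBP to EP300 overlaps between the 3 treated groups, with vehicle just below them.

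The wider pathway was followed in lists of 10 steroid receptors and related receptors, 44 coactivators, 32 Mediator subunits and 49 corepressors. ESR2 is among the receptors, while the coactivator and Mediator lists hold none of the 9 genes. Of the receptors 4 were in the table, ESR2, ESRRA, GPER1 and NR3C1, and the others, ESR1 and PGR among them, were not analysed here. GPER1, the membrane estrogen receptor, was at 1.06, 0.776 and 1.03 CPM in vehicle, 0.263, 0.946 and 0.416 in TNFα, 6.36, 7.815 and 6.87 in E2, and 9.21, 6.02 and 9.11 in E2+TNFα, from 8 to 304 reads. All libraries with E2 lay above all without, with a log2 fold change of 3.86 ± 0.36 in E2+TNFα relative to TNFα (adjusted p = 8.71e-07, edgeR) and of 3.64 ± 0.37 in E2 relative to TNFα. With at most 1.06 CPM without E2, GPER1 may have passed the filter on low values only through the groups with E2. Its rise is then no independent support of a rise. NR3C1, the glucocorticoid receptor, was at 44.8, 64.4 and 57.4 CPM in vehicle, 23.6, 27.9 and 26.9 in TNFα, 9.305, 5.90 and 12.03 in E2, and 15.3, 16.7 and 9.59 in E2+TNFα. It was 1.89 times lower in E2+TNFα than in TNFα (−0.92 ± 0.23, adjusted p = 0.00549) and 2.81 times lower in E2 than in TNFα. ESRRA, an estrogen-related receptor that binds no estrogen, passed the thresholds in TNFα relative to vehicle (1.56 ± 0.16), but with the trends removed the value was 0.53.

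Among the corepressors TBL1X, a subunit of the complex that NCOR1 builds with HDAC3, had the largest fall in E2+TNFα relative to TNFα. It was at 74.1, 81.25 and 74.1 CPM in vehicle, 197, 177 and 208 in TNFα, 14.9, 18.7 and 11.4 in E2, and 14.8, 12.7 and 15.8 in E2+TNFα. The TNFα libraries lay above vehicle and all libraries with E2 below it. It fell 13.4 times in E2+TNFα relative to TNFα (log2 −3.75 ± 0.16, adjusted p = 1.54e-10, edgeR) and 13.2 times in E2 relative to TNFα, with −3.76 and −3.68 when the trends were removed. SIN3B, a scaffold of another deacetylase complex, was at 91.3 to 106 CPM in vehicle, 184 to 214 in TNFα, 384 to 503 in E2 and 366 to 482 in E2+TNFα, and was 2.07 times higher in E2+TNFα than in TNFα (1.05 ± 0.14, adjusted p = 2.27e-05).

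In E2+TNFα relative to TNFα, 10 of the 43 tested coactivators were higher and 10 lower at an adjusted p of at most 0.1, as were 4 and 5 of 31 Mediator subunits and 8 and 11 of 41 corepressors, against 24.4% higher and 21.0% lower of all genes, with median log2 values of 0.00, 0.04 and −0.03 beside 0.04 for all genes. In E2 relative to TNFα the counts were 5 higher and 16 lower for coactivators, 6 and 6 for Mediator subunits and 7 and 15 for corepressors, against 24.9% higher and 21.8% lower of all genes. NCOA7, a coactivator outside the steroid receptor coactivator family, fell past the thresholds there (−1.55 ± 0.30, adjusted p = 0.000863) with 9.55 to 11.97 CPM in TNFα and 2.81 to 5.10 in E2, and the value was −1.39 with the trends removed. In E2+TNFα relative to E2, 4 coactivators were higher and 0 lower, 1 Mediator subunit was higher and 1 lower, and 0 corepressors were higher and 1 lower, against 2.65% and 3.34% of all genes.

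Relative to vehicle the coactivators fell past the thresholds 9, 9 and 6 times and rose 0 times under the 3 treatments, the Mediator subunits fell 4, 4 and 3 times and rose 3, 0 and 0 times, and the corepressors fell 6, 4 and 5 times and rose 1, 0 and 2 times. Of all tested genes 20.6%, 20.0% and 17.6% fell and 9.87%, 6.64% and 7.52% rose, so the falls of coactivators, 9 of 43 in E2, lay near the share of all genes. After removal of the trends these falls were 2, 1 and 0 for coactivators, 0, 0 and 0 for Mediator subunits and 4, 2 and 1 for corepressors, against 6.64%, 5.55% and 5.19% of all genes. Named falls included those of JMJD1C (−3.10, −3.17 and −2.51 in the 3 comparisons), a demethylase-family protein, and of LCOR (−3.19, −2.64 and −2.26), a ligand-dependent corepressor, and with the trends removed they were −0.73, −0.99 and −0.62 for JMJD1C and −0.45, −0.05 and −0.10 for LCOR. Further named falls were ASCC3 (−2.82 in E2 and −2.98 in TNFα), RBM39 (−2.37 in E2+TNFα), TBL1XR1 (−2.84 in E2 and −2.60 in TNFα), MED13 (−2.30 and −2.13), MED23 (−2.46 in E2 and −1.76 in E2+TNFα), CCNC (−2.04 in TNFα) and CDK19 (−1.72 in E2+TNFα). These too were smaller with the trends removed. The values were then −0.05 and −0.39 for ASCC3, −0.80 for RBM39, −0.25 and −0.12 for TBL1XR1, 0.26 and 0.23 for MED13, −0.71 and −0.30 for MED23, −0.21 for CCNC and −0.52 for CDK19, of which ASCC3 in E2, TBL1XR1, MED13, MED23 in E2+TNFα and CCNC did not pass an adjusted p of 0.1. NR3C1 was at −2.58 in E2 and −2.01 in E2+TNFα, and TBL1X at −2.40 in E2+TNFα, with −0.52, −0.39 and −2.53 when the trends were removed. Named rises past the thresholds were those of GPER1 (2.86 in E2 and 3.08 in E2+TNFα), SIN3B (2.15 and 2.095), MED18 (1.94 in E2) and MED11 (1.58 in E2), with 2.03 and 2.31 for GPER1, 1.65 and 1.60 for SIN3B, 1.67 for MED18 and 0.66 for MED11 when the trends were removed. The limit given above for the filter and GPER1 holds here too.

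The interaction passed the thresholds upward for 11 coactivators, 5 Mediator subunits and 6 corepressors and downward for 0, 3 and 1, against 22.5% and 9.29% of all tested genes. The largest values were those of JMJD1C (3.76) and ASCC3 (3.51), of MED13 (2.76) and MED23 (2.66), of LCOR (3.56) and TBL1XR1 (3.43) and of NR3C1 (1.66), and the lowest those of MED18 (−1.89), MED22 (−1.63), PHB2 (−1.63) and ESRRA (−1.59). After removal of the trends most of these were small. JMJD1C was then at 1.097, ASCC3 at 0.27, MED23 at 0.74, LCOR at 0.40 and TBL1XR1 at 0.39, MED13 turned to −0.13 and NR3C1 to −0.61, and ASCC3, LCOR, TBL1XR1 and MED13 did not pass an adjusted p of 0.1. MED18 was at −1.68, MED22 at −0.88, PHB2 at −0.72 and ESRRA at −0.50. JMJD1C, ASCC3, LCOR and others with low levels outside vehicle may have passed the filter only through vehicle. A high vehicle value raises the interaction, so their values are then no independent support.

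Among the 5 genes whose log2 CPM followed that of ESR2 most closely over the 12 libraries, among 8463 tested genes with a mean of at least 10 CPM, were UHRF1 (Pearson r = 0.947), CNKSR1 (0.946), EPPK1 (0.910) and STARD13 (0.903). UHRF1, which maintains DNA methylation at replication, had 98.3 CPM in vehicle, 56.4 in TNFα, 68.1 in E2 and 86.4 in E2+TNFα. The genes closest to NRIP1 were BACH1 (0.996), TMEM87B (0.995), UBE3A (0.992), PTBP3 (0.992) and MBNL1 (0.991). BACH1, a transcription factor of the heme and oxidative stress response, had 53.8 CPM in vehicle, 11.4 in TNFα, 5.67 in E2 and 12.3 in E2+TNFα. All 5 have a low exon GC content (37.5 to 42.2%), near the 38.6% of NRIP1, so these likenesses share both the step between vehicle and the other libraries and base composition. Among the 9 genes the closest pair was NRIP1 and MED1 (r = 0.985), and ESR2 was closest to NCOA1 (0.799) and farthest from NCOR1 (0.389). These correlations describe the 12 libraries of 4 groups and are given with no p.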

How the data were processed

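RNA-seq counts of 12 libraries were analysed. Per the labels and the study's methods, the authors made stranded mRNA libraries, mapped paired-end reads to hg38 with TopHat2 (2.1.0) and counted them with featureCounts. The deposited values are raw counts per gene, without normalization, and the study's RUVseq correction is not in them. From 12567 entries, 46 exact repeats and 70 entries with another symbol's locus and counts were removed, leaving 12451. The 11303 genes that reached an RPKM of 1 in 3 or more libraries were TMM-scaled and fitted with edgeR 4.0.16 (R 4.3.3, quasi-likelihood F test), with 4 group means in one fit and Benjamini-Hochberg adjustment over all 11303. Thresholds followed the study's methods, and RPKM used the summed exon length.

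The alternatives were size factors of DESeq2, library size only, no filter, at least 10 counts in every library, a replicate block, an unwanted factor from 20 housekeeping genes, subtraction from each library of its trends with exon GC content and length (loess, span 0.3), DESeq2 1.42.0, the compared groups only, and each library left out. Replicates were separate dishes, so p-values measure the spread between dishes. The study's methods describe a correction for batches, but which libraries formed a batch is not given in the sources used here. Whether batches coincide with groups is therefore not known. Between replicates, chi-square per degree of freedom was 9.49 to 66.0, so none was a repeat of another. The fits were tested on simulated data. Similar stretches elsewhere (at least 400 matched bases) were sought with minimap2 2.31. The genes named were the 9 genes, per list the 2 largest rises and falls past the thresholds in each comparison, the 5 genes most like ESR2 and NRIP1, and known targets of each treatment, and some genes that this rule names are not reported here. The 9 genes, the lists and the ratios were chosen with earlier results of these data known.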

Additional observations from a re-analysis of the deposited data

Results flagged for a closer look

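The difference that E2 made in cells with TNFα was set against the one it made without TNFα, and for each of the 9 genes this interaction was above 0 at an adjusted p of at most 0.1 (edgeR), as it was for 39.0% of all tested genes. On the log2 scale it was 1.44 for ESR2, 1.63 for NCOA1, 2.25 for NCOA2, 1.39 for NCOA3, 1.24 for NCOR1, 2.98 for NRIP1, 2.02 for MED1, 0.73 for EP300 and 0.61 for CREBBP. These values rest on the vehicle libraries, which stood apart from the others. NCOA2 entered the test only through vehicle, where it was high, and a high vehicle value raises the interaction. After subtraction of the trends with GC content and length, 6 of the 9 were still above 0 at that adjusted p, against 31.7% of all tested genes, from 0.31 for NCOR1 to 0.98 for ESR2, NCOA3 was at −0.35, and NCOA1 and NRIP1 did not pass (0.28 and 0.20). With the unwanted factor in the fit, which nearly marks the vehicle group, ESR2 (2.03), EP300 (1.46) and CREBBP (1.47) passed.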

How the results depend on the processing

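For the 9 genes, 902 of the recomputed values kept their direction and their side of the adjusted p, 83 kept the direction only, 31 passed newly and 37 turned. The counts of falls past the thresholds relative to vehicle were 1, 1 and 0 (E2, TNFα, E2+TNFα) with the unwanted factor and 0 with the trends removed, with or without the replicate block, and the interaction gave 7 rises with library size only, 1 with the unwanted factor and 0 with the trends removed. At the adjusted p alone, E2+TNFα relative to TNFα had 2 lower genes with the trends removed, against 33.4% of all genes. With single libraries left out it had 2 to 4 higher and 0 to 1 lower. E2+TNFα relative to E2 had 1 higher gene with the replicate block, 5 with the unwanted factor, 0 with the compared groups only and 1 to 3 with libraries left out. E2 relative to TNFα had 1 higher gene with size factors of DESeq2, at least 10 counts or DESeq2, and 0 with library size only, the block or the compared groups only. It had 5 lower genes with library size only, the unwanted factor or the trends removed (31.1% of all genes with the trends removed). With libraries left out it had 0 to 2 higher and 3 to 5 lower. For the other settings no share of all genes is given here. Whether the 9 genes or all genes moved with a setting is then not shown by these counts.

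Values that turned with the unwanted factor were NCOA1 relative to vehicle (0.62 for E2, 0.54 for TNFα and 1.46 for both together), NRIP1 in TNFα and E2+TNFα (0.16 and 0.41), CCNC in TNFα (4.24), MED23 and NR3C1 in E2+TNFα (0.54 and 0.43) and the interaction of NR3C1 (−0.47). As that factor nearly marks the vehicle group, these turns cannot decide on a direction. With the trends removed, and in parentheses with the block as well, E2 relative to vehicle gave 0.46 (0.45) for NCOA1, 0.71 (0.71) for NCOA3 and 0.26 (0.26) for MED13, and TNFα gave 0.18 (0.18) for NCOA1, 0.17 (0.17) for NCOA3, 0.16 (0.16) for NRIP1 and 0.23 (0.23) for MED13. E2+TNFα relative to vehicle gave 0.15 (0.16) for ESR2, 0.91 (0.91) for NCOA1 and 0.53 (0.52) for NCOA3. NRIP1 in E2+TNFα relative to TNFα was −0.18 (−0.18), NCOA3 relative to E2 −0.18 (−0.18), and the interaction −0.35 (−0.35) for NCOA3, −0.13 (−0.13) for MED13 and −0.61 (−0.61) for NR3C1. EP300 in E2+TNFα relative to TNFα was 0.0029 with at least 10 counts and −0.061 to 0.070 with libraries left out, where MED1 ranged from −0.23 to 0.011, CREBBP from −0.062 to 0.15 and NRIP1 from −0.15 to 0.42. With libraries left out, NCOA3 in E2+TNFα relative to E2 ranged from −0.024 to 0.32, and in E2 relative to TNFα NCOA1 ranged from −0.11 to 0.24 (−0.027 with library size only) and NCOA2 from −0.069 to 0.26. The causes were not tested. Replicate numbers did not pair the libraries, since 4 of 18 same-number pairs had a correlation of deviations above 0.1 (−0.45 to 0.43) and 3 of 12 libraries correlated best with their own number. Depth limits NCOA2 and NRIP1 in E2 most (22 to 76 reads).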
